A study of Fragaria x ananassa with 4 samples.

Results

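Eugenol and monolignol genes of strawberry (Fragaria × ananassa) were compared between red ripe and small green receptacle, the fleshy tissue that carries the achenes. They are 4 of the 35116 genes and named entries on a custom 1-colour Agilent array: the entry FaCAD1 and gene20700 (cinnamyl alcohol dehydrogenase, CAD), gene25260 (FaEGS2, eugenol synthase) and gene29482 (cinnamoyl-CoA reductase, CCR). They were picked by their identifiers, and all 4 passed the filter on dim probes. Total RNA of 2 red and 2 green samples was labelled with Cy3, and each sample was hybridised to an array of its own. The labels name no transgene and no treatment of the plants, and the groups differed in the stage of harvest (mature red against green). Per the methods, achenes had been removed, and the plants were of cultivar Camarosa grown in the field, with fruits pooled, whereas the sample descriptions name 2 replicates per stage, growth in a chamber and then a greenhouse, and RNA from independent fruits. Since it is not settled how the 2 samples of a stage relate to fruits and plants, the p-values measure the spread between these samples, which may be technical. In bulk tissue, fewer cells of a type and less RNA per cell cannot be told apart.

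Phenylalanine is deaminated by phenylalanine ammonia-lyase (PAL), and the cinnamic acid formed is hydroxylated by cinnamate 4-hydroxylase (C4H) and activated by 4-coumarate:CoA ligase (4CL). Hydroxycinnamoyltransferase (HCT) and caffeoyl-CoA O-methyltransferase (CCoAOMT) act before CCR reduces the CoA esters to aldehydes and CAD reduces the aldehydes to monolignols. Monolignols such as coniferyl alcohol are polymerised to lignin, coupled to lignans with the help of dirigent proteins (DIR), or, after acetylation, reduced by eugenol synthase (EGS) to eugenol, a clove-scented phenylpropene of ripe strawberry aroma. Eugenol synthases belong to the family of phenylcoumaran benzylic ether and isoflavone reductases, so that a description by those names does not tell a eugenol synthase from its relatives.

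For gene25260 and gene29482 the study also designed primer pairs for quantitative RT-PCR. They are shown because they define which transcripts the study took these 2 identifiers to be, and each is written 5′ to 3′.
gene25260 upper: ctgggtcaccatttagtcaa
gene25260 lower: gtttggcttgaacagaacaa
gene29482 upper: gagcatctgggttcatagc
gene29482 lower: tccactattacatcaggagc
The primers are 19 to 20 bases long, with 40% to 52.6% G or C. The sequences of the array probes and the genome positions of the genes were not analysed here.

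All 4 genes had much higher signals in red than in green receptacle, by 14.4-fold for the CCR gene29482, 228-fold for FaCAD1, 339-fold for gene20700 and 855-fold for FaEGS2, whose fold depends most on the background correction. Values are log2 of the processed spot signal relative to the 75th percentile of the array, so that 0 is the signal at that percentile. At an adjusted p under 0.05, 4 of 4 were higher in red, beside 37.8% of the 24978 genes tested. Both red values lay above both green values for 4 of 4, as they did for 45.1% of all genes. Calls in this direction were thus common on these arrays, and the sizes of the differences are given gene by gene. The study had tied these genes to ripening in part on the basis of arrays of this series, so their direction here is not independent evidence. It also drew on earlier work on these enzymes and on receptacles with FaPRE1 or FaMYB10 silenced.

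**Figure D1:**
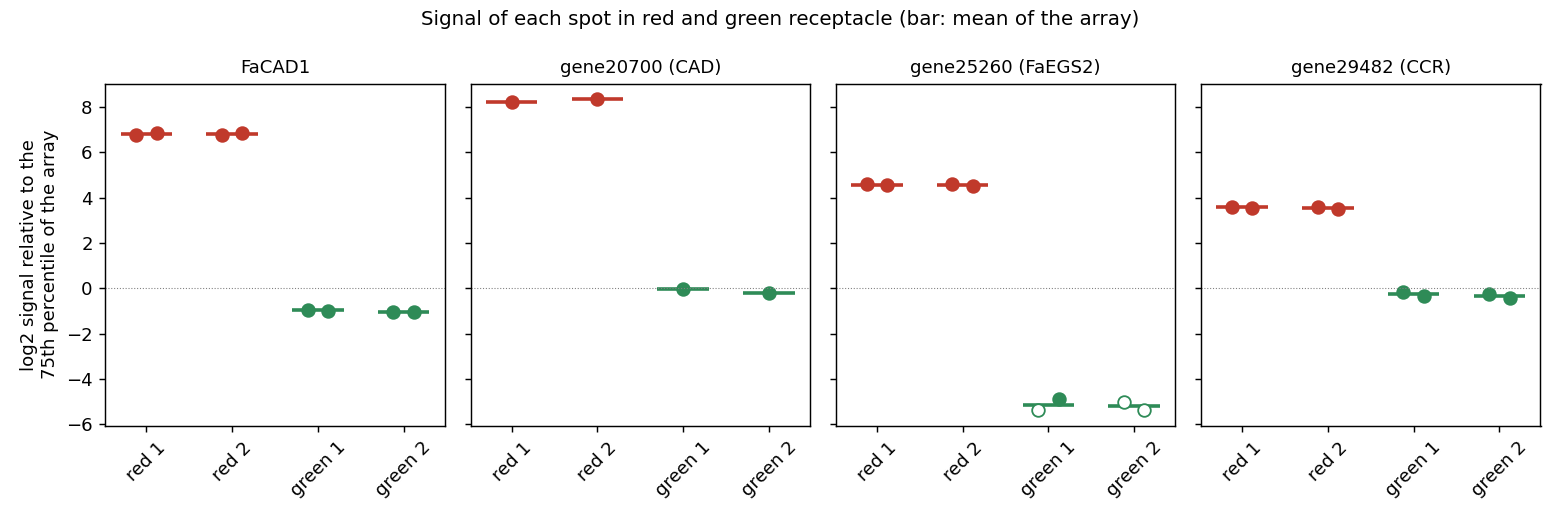
Log2 signal of every spot relative to the 75th percentile of its array (vertical axis) for the 2 red and the 2 green samples (horizontal axis), with a bar at the mean of the array; open points are spots not well above background. The red samples sit above the green samples in each panel, and for gene25260 only 1 of the 4 green spots was well above background.

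CCR catalyses the entry into the monolignol branch. gene29482 had log2 signals of 3.56 and 3.55 in red samples, against -0.24 and -0.34 in green samples. The 2 samples of each stage were close to each other and the stages did not overlap. The log2 fold change was 3.85 with a standard error of 0.07 and a 95% confidence interval of 3.65 to 4.05, which is 14.4-fold (limma, adjusted p = 4.2e-05). Its rise held rank 518 among all genes tested. The processed signals before scaling were 7936 and 5974 in red samples and 331 and 275 in green samples. The probe lies on 2 spots of each array, which differed by at most 0.19 log2 units.

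CAD reduces the aldehydes that CCR makes. The entry FaCAD1 carries this role on the array by its name, and gene20700 carries it by the name that the study gives it. Which gene model the entry FaCAD1 stands for is not given. FaCAD1 had log2 signals of 6.82 and 6.81 in red samples, against -0.98 and -1.06 in green samples. Its log2 fold change was 7.83 with a standard error of 0.07 and a 95% confidence interval of 7.64 to 8.03, or 228-fold (limma, adjusted p = 3.1e-05), rank 28 of all rises. Its 2 spots per array, 8 in all, were all well above background.

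gene20700 had log2 signals of 8.23 and 8.34 in red samples, against -0.03 and -0.21 in green samples. The log2 fold change was 8.40 with a standard error of 0.10 and a 95% confidence interval of 8.13 to 8.68, or 339-fold (limma, adjusted p = 3.1e-05), rank 20 of all rises. It was measured on 1 spot per array, and none of the 4 spots was saturated although the red ones gave processed signals of 201096 and 165407, against 382 and 301 for the green ones. The array describes gene20700 as a probable mannitol dehydrogenase, an enzyme name that annotations often give to relatives of CAD, while the study gives it the name FaCAD1.

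The folds of the CAD entries were compared with each other because the same name stands for both. FaCAD1 minus gene20700 was -1.41 and -1.53 log2 units in red samples and -0.95 and -0.85 in green samples. The log2 fold change of FaCAD1 was thus 0.57 below that of gene20700 (difference -0.57, a ratio of the folds of 1.48). An exact two-sided permutation test over the samples gave p = 0.333, the smallest that its 6 arrangements allow, so this test could not have passed 0.05. Whether the probes read 1 transcript, copies of it or different genes was not tested.

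EGS makes eugenol from the acetylated monolignol. FaEGS2 (gene25260) had log2 signals of 4.58 and 4.56 in red samples, against -5.14 and -5.20 in green samples. The red samples were bright, and the green samples were at the edge of detection: 1 of 4 green spots was well above background, on the array of green 1, and 0 of 2 spots on that of green 2. Its spots had median signals of 10025 to 13924 over a local background of 20 to 23 in red samples, against 29 to 35 over 18 to 21 in green samples. The log2 fold change was 9.74 with a standard error of 0.06 and a 95% confidence interval of 9.56 to 9.92, or 855-fold (limma, adjusted p = 3.1e-05); this interval covers the spread between the samples, not the choice of background correction. With the normexp correction the fold was 112 (log2 6.81), below those of FaCAD1 (178) and gene20700 (303) in the same setting, so the order of the 3 is not settled. It was 1471-fold (log2 10.52) in the matrix of RMA intensities that the authors deposited, and FaEGS2 gave no value where a probe had to be well above background on all 4 arrays.

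For the other 3 genes the choice of processing mattered less. Over all alternatives that kept every sample, the log2 fold change lay between 3.65 and 4.32 for gene29482, between 7.47 and 8.31 for FaCAD1 and between 8.24 and 8.88 for gene20700. The array of red 1 was on another slide than the arrays of the other samples. With red 2 alone, on the same slide as both green samples, the folds were 14.4 for gene29482, 228 for FaCAD1, 352 for gene20700 and 850 for FaEGS2.

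**Figure D2:**
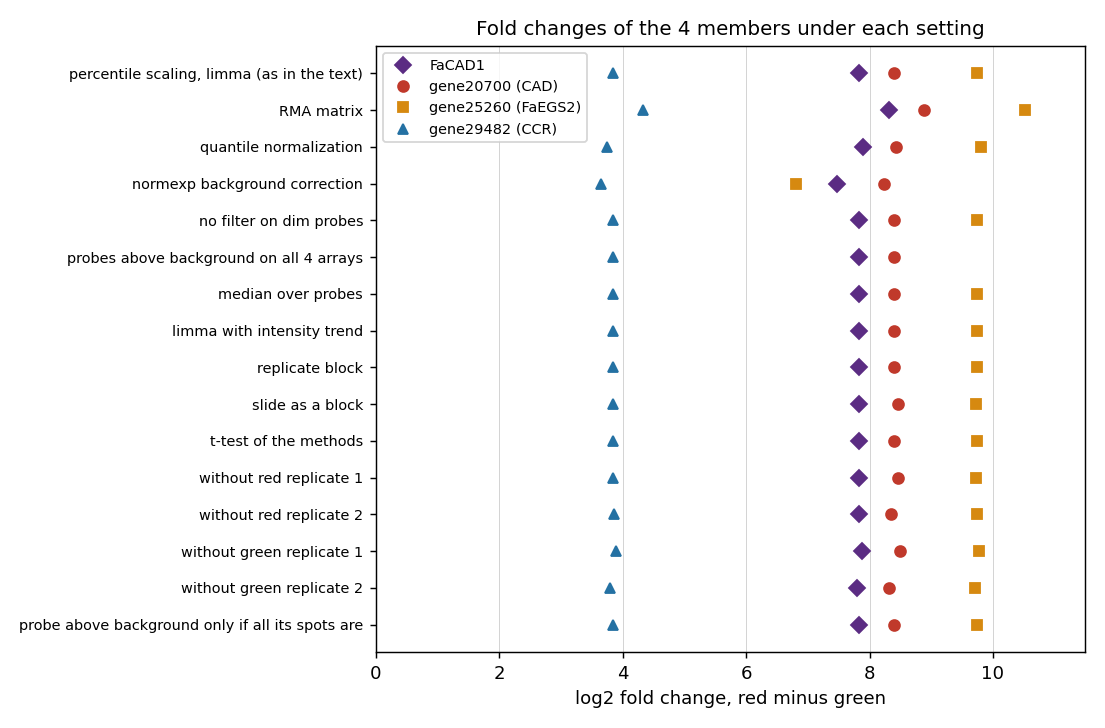
Log2 fold change of red minus green receptacle (horizontal axis) for the 4 genes under each processing setting (vertical axis); each symbol is a gene. Symbols stay in nearly the same place except for gene25260, which is at 6.81 with the normexp correction and at 10.52 in the RMA matrix, and which has no symbol where probes had to be above background on all 4 arrays.

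Over all genes, 9437 were higher and 8754 lower in red. This split moves with the scaling: it was 13177 higher and 5962 lower in the RMA matrix, and 7690 higher and 11551 lower with normexp. Taken over all genes, the log2 fold change had its median at 0.04, against 0.51 in the RMA matrix, 0.18 after quantile normalization and -0.21 with normexp, shifts that are small beside the log2 fold changes of the 4 genes. The arrays correlated at 0.994 between red samples, at 0.995 between green samples and at 0.818 to 0.821 between stages, over genes. Red samples had a 75th percentile of 671 and 509 and green samples one of 390 and 347, with 23658 to 24374 probes well above background. As a check of the labels, the ripening regulator FaMYB10 (gene31413) and the quinone oxidoreductase FaQR (gene28407), which makes furaneol, had log2 fold changes of 7.63 and 6.75. The separate entries Famyb10 and FaQR had log2 fold changes of 8.56 and 4.91. Photosystem and chlorophyll-binding genes were lower in red for 27 of 27. FaPRE1, another ripening gene, had a log2 fold change of 2.55 at the entry of that name and of -0.65 at gene30478. The study uses the second identifier for this gene. Seed and late embryogenesis genes, taken by keyword as markers of achenes, were higher in red for 23 of 29 tested and lower for 4. Over all genes tested, 37.8% were higher and 35% lower. The summed log2 level of these markers was 7.08 and 7.18 in red samples against 6.01 and 6.12 in green samples. Of the 32 on the array, 2 were above background in no sample. Whether the list marks achenes alone, and its part in the differences of the 4 genes, was not tested.

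**Figure D3:**
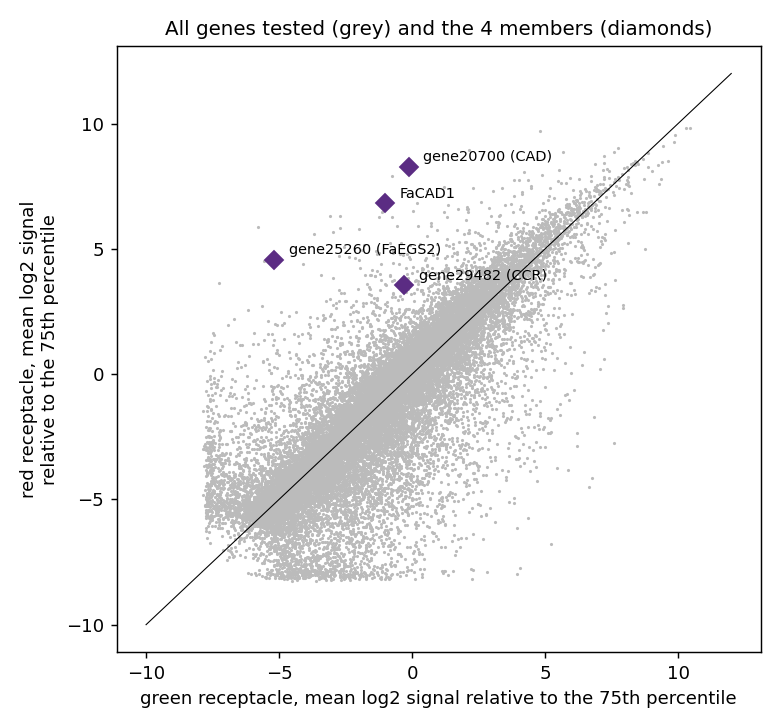
Mean log2 signal relative to the 75th percentile in red receptacle (vertical axis) against that in green receptacle (horizontal axis) for the 24978 genes tested (grey) and the 4 genes described (diamonds); the line marks equal signals. All 4 diamonds lie far above the line, gene25260 by 9.74 log2 units and gene29482 by 3.85.

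The rest of the pathway was taken from the best-ranked description of each gene on the array. Without the 4 genes above, 75 genes had a description with a keyword for one of its enzymes or for relatives of it, and 62 of them were tested. The CAD list takes in mannitol dehydrogenases. The EGS list takes in phenylcoumaran, isoflavone and pinoresinol-lariciresinol reductases, and no gene tested in it was described as a eugenol synthase. The counts thus include relatives whose function is not known from the description. Of these, 37 (59.7%) were higher in red, against 37.8% of all genes, 19 (30.6%) were lower, against 35% of all genes, and 6 did not pass the test. Both red values lay above both green values for 38 of the 62 and below them for 22, where 45.1% and 42% of all genes did so. At the median, the log2 fold change was 0.75 in the list and 0.04 over all genes. Some genes of the list passed the filter on dim probes only through the stage where they were higher, which fixed their direction. With probes above background on all 4 arrays, 36 of 52 were higher and 12 lower. Over all genes, 8530 of 21494 were higher and 7516 lower in that setting.

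**Figure D4:**
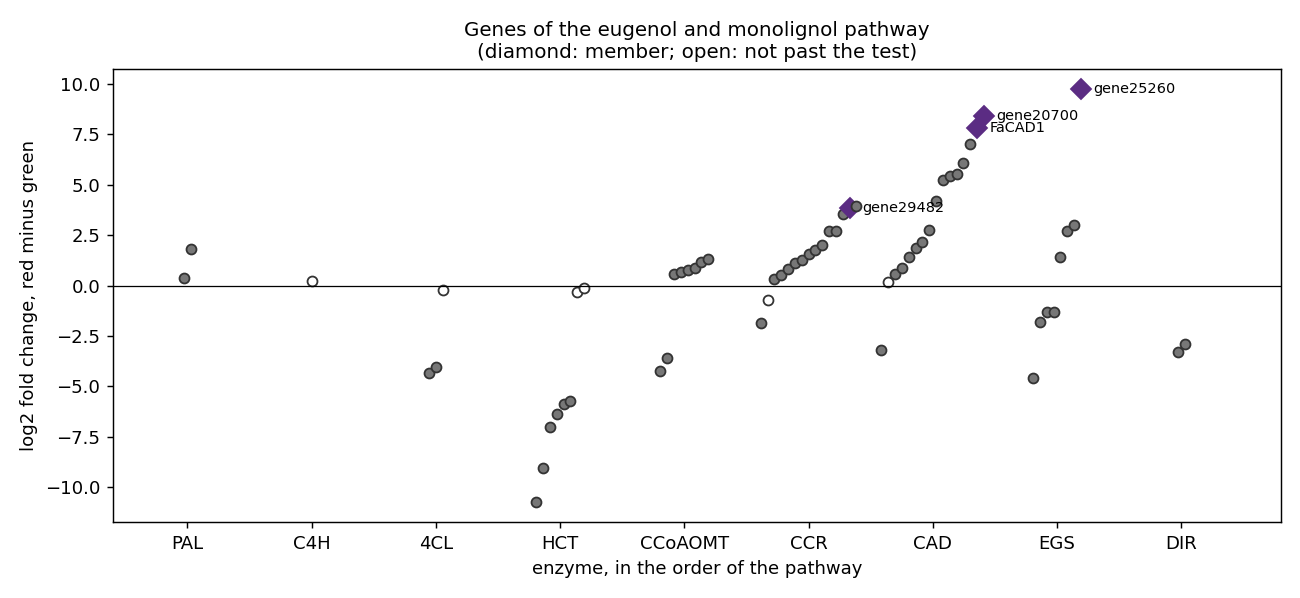
Log2 fold change of red minus green receptacle (vertical axis) for each gene tested of the enzymes described here, in the order of the pathway (horizontal axis); diamonds are the 4 genes described, open symbols did not pass the test, and values of genes not above background in a stage are fitted values. CCR and CAD genes lie mostly above 0, and HCT, 4CL and DIR genes lie below it.

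At the first step, both PAL genes were higher in red, as were 37.8% of all genes. gene23261 had a log2 fold change of 1.81 (3.51-fold) and gene09753 one of 0.36, a difference that did not pass the test after quantile normalization, with the slide as a block or without either red sample. The single C4H gene, gene28093, did not pass (log2 fold change 0.23, adjusted p = 0.13). Among 4CL genes, 2 of 3 (66.7%) were lower in red, against 35% of all genes. gene15877 had a log2 fold change of -4.36 and gene12577 one of -4.04.

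HCT passes the coumaroyl group to shikimate or quinate. Of its 8 genes tested, 6 (75%) were lower in red, against 35% of all genes, 0 were higher and 2 did not pass. gene01943, well above background on all arrays, had mean log2 signals of -5.67 in red and 0.72 in green, a log2 fold change of -6.39. Its red mean was nevertheless below the green mean of FaEGS2 (-5.17). The log2 fold change of gene01943 lay between -6.64 and -3.75 over the settings, so its size also depends on the background correction. The other 5 that fell had no red signal well above background and passed the filter on dim probes only through the green samples. The filter thus fixed the direction of their calls. Only bounds can be given: they were at least 30.9-fold to at least 909-fold lower in red. Over the settings the log2 fold change of gene34602 lay between -8.33 and -1.80 and that of gene34068 between -13.12 and -5.98, so these bounds hold only for the background subtraction used. A bound sets the green mean against the gene's own red signal or the lowest signal of any probe well above background on that array, whichever was higher.

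CCoAOMT genes were mixed. Of 8 genes, 6 (75%) were higher in red, against 37.8% of all genes, and 2 (25%) were lower, against 35%. The lower genes were gene29535 at -4.21 and gene12150 at -3.61. The 6 higher genes rose by small amounts (log2 fold changes of 0.57 to 1.30), led by gene11384 at 1.30. Of the 6, gene07164 and gene11386 turned to -0.07 and -0.09 with normexp.

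CCR and CAD genes were mostly higher in red. Besides gene29482, 12 of 14 CCR genes (85.7%) were higher, against 37.8% of all genes. Of the rest, 1 was lower and 1 did not pass, and the 14 had a median log2 fold change of 1.43. The largest was that of gene29483, at 3.95 (15.5-fold), beside 3.53 for gene03747. Among the 12, gene02203 (0.33) lost its call in 7 alternatives and gene10343 (0.50) in 5. Besides FaCAD1 and gene20700, 12 of 14 CAD genes (85.7%) were higher, against the same 37.8%, 1 was lower and 1 did not pass, with a median of 2.48. gene09243, which is also described as a mannitol dehydrogenase, rose 131-fold (log2 7.03), and gene20697 rose 45.7-fold (log2 5.51). gene00496, with green signals not well above background, was at least 46.4-fold higher with this background subtraction, and its log2 fold change lay between 2.07 and 8.45 over the settings, so its place beside FaCAD1 and gene20700 is not settled.

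In the family of eugenol synthase, calls went both ways. Besides FaEGS2, 3 of 7 genes (42.9%) were higher in red, against 37.8% of all genes. The other 4 (57.1%) were lower, against 35% of all genes. Their median was -1.31, and counts this small are given as description only. gene25257, described as a phenylcoumaran benzylic ether reductase-like protein, had a log2 fold change of 3.01 and gene15165, an isoflavone reductase-like protein, one of -4.59. The named entry FaFenilCBER has no description and is not in these counts. Its name resembles phenylcoumaran benzylic ether reductase, but which gene it stands for is not given. It was well above background on all 4 arrays, with a log2 fold change of 9.38 (665-fold), and of 8.24 to 9.91 over the settings. The named entry FaIFR1, of the isoflavone reductase name, had green signals not well above background. It was at least 8.88-fold higher in red with this background subtraction. Its log2 fold change lay between 0.37 and 7.96 over the settings, and it did not pass with normexp. Both dirigent genes tested were lower in red, gene07607 by a log2 fold change of -2.89. The other passed the filter on dim probes only through the green samples. The C3H and F5H genes, hydroxylases of the aromatic ring, were not tested because their probes were too dim. The same held for a gene of the EGS list described as isoeugenol synthase 1.

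Gene models with neighbouring numbers often had like descriptions, and windows of 4 numbers on each side of gene20700, gene25260 and gene29482 were looked at after their values had been seen. Whether such genes are neighbours in the genome, and whether probes of near-identical copies read each other's transcripts, was not tested.

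**Figure D5:**
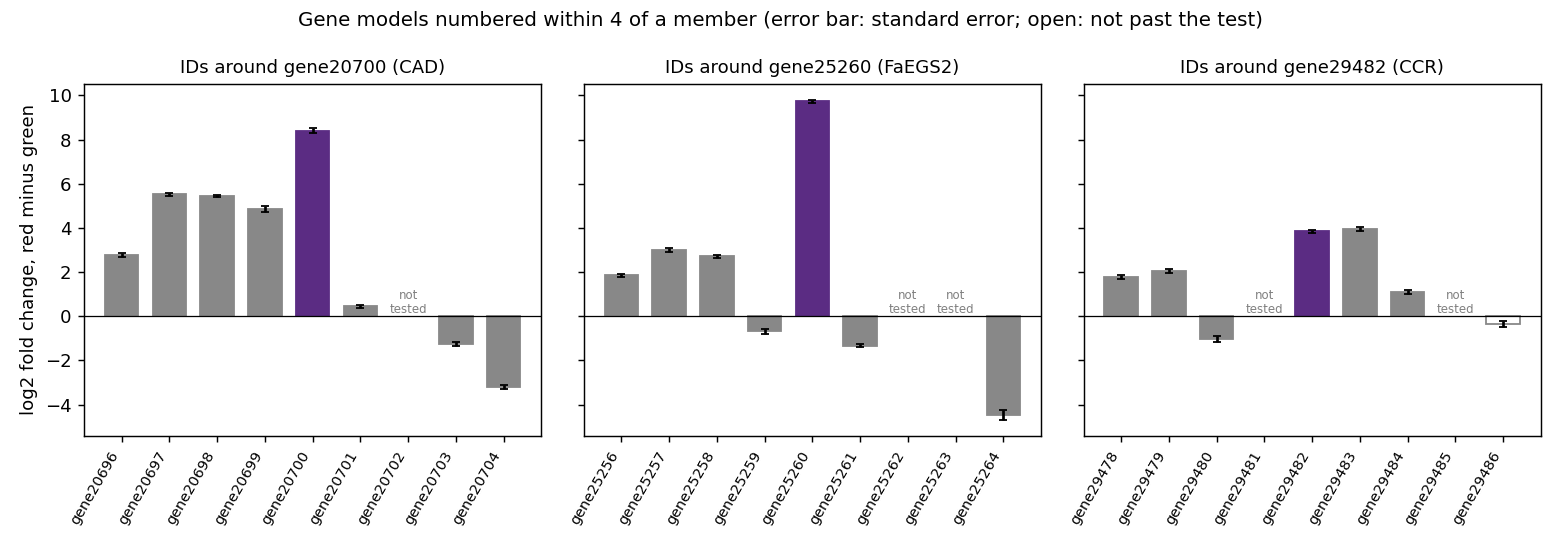
Log2 fold change of red minus green receptacle (vertical axis) for the gene models numbered within 4 of gene20700, gene25260 and gene29482 (horizontal axis), with standard errors as error bars; open bars did not pass the test. gene25260 stands at 9.74 between gene25259 at -0.69 and gene25261 at -1.33, while gene29482 and gene29483 are of like height.

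Over all genes tested, 37.8% were higher in red and 35% lower, and counts in windows this small are given as description only. Around gene20700, 5 of 7 genes tested were higher in red and 2 lower. The CAD genes gene20696, gene20697 and gene20698 had log2 fold changes of 2.78, 5.51 and 5.44, each below the 8.40 of gene20700. gene20699, described as a metalloendoproteinase, had a fitted fold of 28.8 against green signals that were not above background, with log2 fold changes of 1.82 to 5.92 over the settings, and gene20701, with no description, was 1.38-fold higher. Around gene25260, 3 of 6 were higher and 3 lower, and 1 of the lower genes passed the filter on dim probes only through the green samples. The reductase genes gene25257 and gene25258 had log2 fold changes of 3.01 and 2.71, whereas those next in number to FaEGS2 were lower in red: gene25259, with no hit, at -0.69 (not past the test in the RMA matrix or after quantile normalization) and gene25261, a reductase-like gene, at -1.33. Around gene29482, 4 of 6 were higher, 1 lower and 1 not past the test. Its neighbour in number gene29483, another CCR gene, had log2 signals of 3.78 and 3.75 in red samples, against -0.12 and -0.26 in green samples. The CCR genes gene29478, gene29479 and gene29484 had log2 fold changes of 1.77, 2.03 and 1.10, and gene29481 was too dim to be tested.

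The study ties the R2R3 MYB factors FaMYB10 and FaEOBII to these enzymes, the first as a regulator of flavonoid and phenylpropanoid genes and the second of eugenol synthesis. FaMYB10 (gene31413) had log2 signals of 5.09 and 5.05 in red samples, against -2.56 and -2.56 in green samples, which is 198-fold. FaEOBII (gene28435) had 2.79 and 2.86 in red samples, against -1.97 and -1.52 in green samples, a log2 fold change of 4.57 with a standard error of 0.18 (23.7-fold, adjusted p = 0.00016). Both stages were apart for both factors.

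The genes most like each of the 4 were sought by the Euclidean distance between log2 signals centred on the gene mean, over the 4 samples. With 2 stages this distance mostly finds genes with an equal fold. For FaCAD1 they were gene12591, a UDP-glucose glucosyltransferase (distance 0.18), gene31413, which is FaMYB10 (0.21), gene15184, described as SAMT (0.24), gene10185 (0.25) and gene08940 (0.29). For gene20700 they were gene06729, a cytochrome P450 (0.15), the entry Famyb10 (0.18), gene19112 (0.26), gene21702, a class IV chitinase (0.31), and gene34802 (0.33). For FaEGS2 the 5 nearest lay farther away than for the others: FaFenilCBER (0.42), gene09427, a putative glutathione S-transferase (0.47), gene14839 (0.66), gene34259 (0.72) and FaGST1 (0.72). FaFenilCBER had log2 signals of 6.29 and 6.30 in red samples, against -3.21 and -2.95 in green samples (665-fold). For gene29482 they were close, namely gene27452 (0.05), gene30514, a Nudix hydrolase (0.06), gene07064, a PR-10 protein (0.06), gene05091 (0.08) and gene05178, a type-b response regulator (0.08). The distances of gene10185, gene08940, gene06729, gene34802 and gene14839 rest on green signals that were not well above background. All 5 distances of FaEGS2 also rest on its own green signals, where 1 of 4 spots was well above background. How its nearest genes and their distances change with the background correction was not tested. No gene of the 4 was among the 5 nearest of another.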

How the data were processed

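Agilent Feature Extraction 10.7.3.1 had read the scans, per the file headers. Each deposited spot intensity is linear, with the background subtracted and no scaling from array to array. A second deposited table holds linear intensities after RMA by the authors. Control and outlier spots (84 to 255 of 61657 on an array) were dropped, and a probe's spots averaged. Probes were kept if at least 1 spot was well above background on 2 or more of the 4 arrays. A gene is the mean of its probes. Stages were compared in limma 3.58.1 (lmFit, eBayes; R 4.3.3) with neither trend nor block, and p-values were adjusted by Benjamini-Hochberg over 24978 genes at 0.05. Bounds are means of normalized log2 values. The procedure was tested on simulated data. The number of arrays limits the precision.

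The genes and lists were chosen with earlier results of these data known. Enzyme lists are keywords in the array's descriptions, and a keyword can catch genes of another function. The genes of 1 enzyme are in the list's counts but are not reported here. Genes named are the 4, 2 regulators, entries with an enzyme name, up to 3 per enzyme with the largest change among those above background on all arrays, neighbours in number, and the 5 nearest by distance. Others (gene07164, gene11386, gene02203, gene10343, gene25258, gene28093, gene00496, gene34602, gene34068, gene20696, gene29478, gene29479, gene29484) were named after their values were seen.

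Alternatives were the RMA matrix, quantile normalization, normexp (offset 50) on the median spot signal, since the mean spot signal was not used here, 2 other dim-probe filters, the median over probes, an intensity trend, replicate and slide blocks, the methods' t-test and threshold, a 2-fold threshold and each sample left out, and, added after the data were seen, any description and all spots above background.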

Additional observations from a re-analysis of the deposited data

How the results depend on the processing

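All 4 genes stayed higher in red and past the threshold under every alternative that gave a value, with adjusted p of at most 0.0038. Leaving out each sample gave log2 fold changes of 7.79 to 7.87 for FaCAD1, 8.32 to 8.49 for gene20700, 9.71 to 9.77 for gene25260 and 3.80 to 3.90 for gene29482, and -0.63 to -0.51 for FaCAD1 minus gene20700 (-0.77 to -0.53 under the other alternatives). It gave 34 to 37 pathway genes higher and 19 to 21 lower, and 8082 to 8857 and 8013 to 8114 over all genes. Here the lone sample takes its spread from the other stage. Of the list, 15 genes were higher and 15 lower at the methods' threshold (log2 fold change above 2), against 37 and 19. Higher genes thus did not outnumber lower ones in the list at that threshold, whereas lower ones outnumbered higher ones over all genes. With probes above background on all 4 arrays 12 were lower, and with any description 52 of 97 were higher and 37 lower. Over all genes, 1650 were higher and 2985 lower at the methods' threshold, and 4354 and 5381 at 2-fold, against 9437 and 8754. Deviations of same-numbered samples correlated at 0.078. With 2 samples per stage and red 1 on another slide, this value cannot show whether the numbers pair the samples. With the replicate block, 9465 genes were higher and 8844 lower, 37 and 19 in the list, and the 4 genes kept their calls (adjusted p = 0.00088). Signal over background limits FaEGS2, gene00496 and gene20699 in green receptacle and the HCT genes in red.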

Other observations

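Outside the rule for named genes, and chosen after its values were seen, the entry FaDof, a zinc-finger factor by its name, had log2 signals of 3.43 and 3.35 in red samples, against -2.12 and -1.96 in green samples (43.1-fold). Which Dof gene it stands for is not given in the files. Among CAD genes chosen in the same way, gene08569 had a log2 fold change of 5.22 and gene00494 one of 4.22, while gene17846 was lower in red at -3.18. The CCR gene gene31464, likewise chosen, was lower at -1.85, next in number to gene31465, which was higher at 1.29.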
